A study of Mus musculus with 5 samples.

Results

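The AP-1 and immediate early genes were examined in EpH4 cells that carried a control guide RNA (sgControl) or a guide RNA directed at Mef2d (sgMef2d). The 10 genes were named by a fixed list, namely Jun, Junb, Jund, Fos, Fosb, Fosl1, Fosl2, Atf3, Egr1 and Nr4a1. Of these, 9 were listed and tested among the 12934 genes listed and 12483 genes tested, and Jund is not analysed here. EpH4 is a spontaneously immortalized mouse mammary epithelial cell line. All cells carried Cas9 delivered by lentivirus, were selected with blasticidin and then puromycin, and grew in DMEM with fetal bovine serum, without a stimulus that the labels or methods name. There were 3 sgControl libraries and 2 sgMef2d libraries. The paper describes a pair of sgRNAs against Mef2d, and neither it nor the labels say which of them the sgMef2d libraries carry, or whether the libraries came from separate cultures. Its general statement, that experiments were repeated independently 3 or more times, does not mention the libraries. The p-values therefore measure the spread between these libraries, which may be technical.

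AP-1 is a pair of leucine zipper proteins that bind DNA together. A Jun protein pairs with another Jun protein or with a Fos protein, whereas Fos proteins do not pair stably with each other. Immediate early genes are transcribed within minutes of serum, growth factors or stress, without new protein synthesis, and their RNA is short-lived. Jun and Nr4a1 are classical targets of MEF2 factors, which bind A/T-rich sites. In epithelia, AP-1 is known for driving genes of migration, wound repair and stratified differentiation.

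The libraries held between 13601145 and 20498563 counts. Of the pairs of libraries of a group, sgControl replicates 2 and 3 and the sgMef2d pair had a chi-square per degree of freedom of 1.99 and 2.03, where 1 is counting error alone, and the pairs of sgControl replicate 1 with the other sgControl libraries had 10.6 and 13.6. That library stood apart within its group, so results that change without it are given both ways. Mef2d itself reached 64.3, 76.9 and 71.5 CPM (counts scaled by library size) in sgControl and 64.2 and 65.8 CPM in sgMef2d, a log2 fold change of -0.12 (adjusted p = 0.400, edgeR's quasi-likelihood test), of -0.19 (adjusted p = 0.00550) without sgControl replicate 1 and of -0.06 (adjusted p = 0.770) without sgControl replicate 2. RNA counts do not show protein or edited sequence. The paper reports that MEF2D protein was absent from its knockout EpH4 cells by immunoblot. Epcam was at 251 to 278 CPM in every library, and 11 of 12 epithelial markers were listed, which summed to 3229 to 3325 CPM in sgControl and 3638 to 3784 CPM in sgMef2d. Of these, Krt5, Krt14 and Cldn4 passed the test upward and Krt18 downward, and Krt8 was not past it. Krt14, a basal keratin gene, had 436 to 443 CPM in sgControl and 875 and 929 CPM in sgMef2d, a difference as large as that of the sum. Krt5 had between 0 and 0.146 CPM in sgControl and 15.3 and 14.2 CPM in sgMef2d. Of 8 fibroblast markers 6 were listed, at 643 to 767 CPM and 608 to 649 CPM in all, with Col3a1 and Dcn higher and Col1a2 lower. Leukocyte markers (2 of 8 listed, 0 past the threshold, smallest p for Cd68) summed to at most 4.11 CPM, and of 6 endothelial markers 0 were listed. The part of these markers in the results was not tested. In a bulk RNA sample, fewer cells with a transcript and less transcript per cell cannot be told apart.

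Among the 9 genes measured, which do not include Jund, the RNA in sgControl EpH4 cells was mainly that of Junb, Fosl2 and Fosl1, and the classical immediate early genes Fos, Fosb and Egr1 were low. Levels between genes were compared as RPKM, which is CPM per kilobase of annotated exons. Junb, a Jun family subunit often opposed to Jun in growth control, had 69.9 ± 3.0 RPKM (SD, n = 3) in sgControl, above 95.0% of the genes tested. Fosl2, which encodes the FOS-related protein FRA-2, followed with 33.3 ± 2.18 RPKM, and Fosl1, which encodes FRA-1, with 30.5 ± 0.904 RPKM. Jun reached 14.99 ± 0.937 RPKM and Nr4a1, an orphan nuclear receptor gene, 5.80 ± 0.343 RPKM. Below these lay Atf3, a stress-induced bZIP repressor gene, with 1.77 ± 0.207 RPKM and Fos with 1.53 ± 0.189 RPKM, above 23.5% and 21.5% of the genes tested. Fosb with 0.522 ± 0.137 RPKM and Egr1, a zinc finger factor gene, with 0.408 ± 0.0632 RPKM were the lowest, above 9.61% and 7.59% of the genes tested. The neighbours Fosl2 and Fosl1, Atf3 and Fos, and Fosb and Egr1 overlapped in range over the sgControl libraries, and the other neighbours did not. In sgMef2d the order by these lengths was the other way in each of these pairs, with Fosl1 (41.7 ± 0.709 RPKM, SD, n = 2) above Fosl2 (30.1 ± 0.862), Fos (2.31 ± 1.16) above Atf3 (1.47 ± 0.0871) and Egr1 (0.593 ± 0.201) above Fosb (0.552 ± 0.140). Of these pairs, Fosl1 and Fosl2 alone did not overlap in range in sgMef2d. The place of Fosl1 depends on its length, since many of its exon bases are shared with a gene on the opposite strand. With such bases left out of the lengths, an alternative chosen after seeing the data, Fosl1 had 69.8 to 73.7 RPKM in sgControl, above Fosl2 and overlapping Junb (71.9 to 77.9 RPKM), and in sgMef2d its mean of 97.4 RPKM was above that of Junb (89.0 RPKM).

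**Figure D1:**
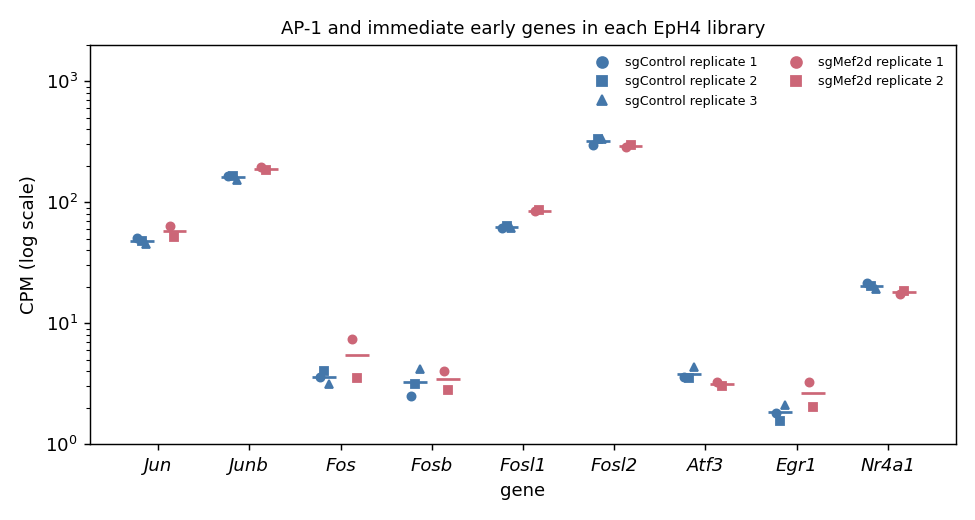
CPM on a log scale for the 9 genes in each library, with circles, squares and triangles for replicates 1, 2 and 3, blue for sgControl, red for sgMef2d, and a bar at each group mean. Fosl2 is highest in CPM, which is not scaled by length, the 2 sgMef2d points of Fosl1 (83.7 and 85.7 CPM) lie above the sgControl points (60.8 to 64.1 CPM), and the sgMef2d points of Fos (7.36 and 3.50 CPM) lie far apart.

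Between the groups, 2 of the 9 genes passed the threshold of an adjusted p below 0.05, and both, Fosl1 and Junb, rose in sgMef2d EpH4 cells. Over all genes tested 7.95% passed, 3.67% higher and 4.28% lower. The sgMef2d libraries lay above all sgControl libraries for 3 genes (Jun, Junb, Fosl1) and below them for 3 (Fosl2, Atf3, Nr4a1). Such separation occurred in 41.1% of all genes tested, 20.6% higher and 20.5% lower. The 9 genes had a median log2 fold change of 0.24, against 0.0031 for all genes, with 6 values positive and 3 negative. Once sgMef2d replicate 1 was left out, the values were negative for Fos (-0.05), Fosb (-0.17), Fosl2 (-0.12), Atf3 (-0.32) and Nr4a1 (-0.14). They were then positive for Jun (0.11), Junb (0.18), Fosl1 (0.46) and Egr1 (0.14), so the upward median depended on that library. Counted with all libraries and without adjustment (p below 0.05), 4 of the 9 passed, beside 23.2% of all genes tested. Without sgControl replicate 1 the count was 5, with Jun, Junb, Fos and Fosl1 higher and Fosl2 lower, in a fit where 29.4% of all genes passed (3639 in place of 992). Without sgControl replicate 2, sgControl replicate 3 or sgMef2d replicate 1 only Fosl1 passed, and without sgMef2d replicate 2 Fosl1 and Fos did. In these 4 fits 4.84%, 6.51%, 1.88% and 1.83% of all genes passed.

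**Figure D2:**
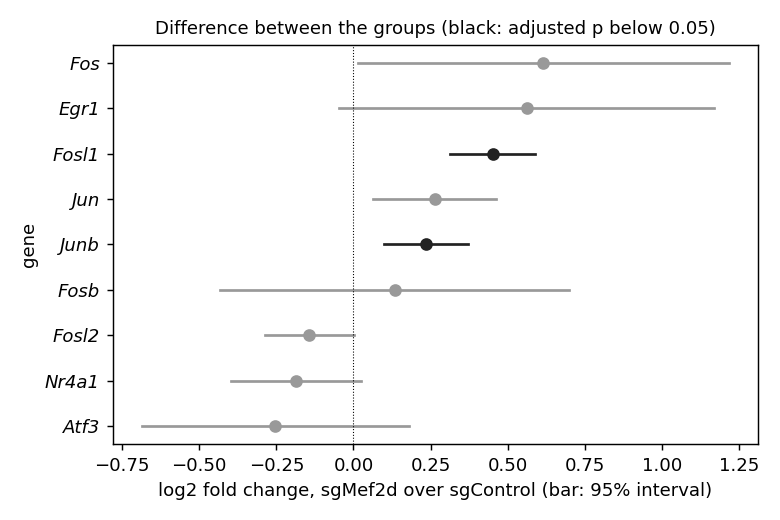
Log2 fold change of each gene, sgMef2d over sgControl (x axis), with its 95% interval as a bar, in black for an adjusted p below 0.05. Fosl1 and Junb are in black, with intervals from 0.31 to 0.59 and from 0.10 to 0.37, and the intervals of Fos and Egr1 are the widest.

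Fosl1 was the clearest change. In the order of the replicate numbers, which all values per library follow, it had 60.8, 64.1 and 61.1 CPM in sgControl and 83.7 and 85.7 CPM in sgMef2d. The replicates of each group were close together and the groups did not overlap. The log2 fold change was 0.45 (SE 0.062, 1.37-fold), for which edgeR's quasi-likelihood test gave an adjusted p of 0.00125. The sgControl mean was 62.0 ± 1.84 CPM (SD, n = 3) and the sgMef2d mean 84.7 ± 1.44 CPM (SD, n = 2). Fosl1 also varied little among the sgControl libraries, with an SD of log2 CPM (0.04) above that of only 13.8% of the genes tested. It remained past the threshold in 15 of 15 alternatives, with log2 fold changes between 0.38 and 0.47 and adjusted p from 2.11e-10 to 0.0458. Fosl1 (ENSMUSG00000024912.6) lies on chromosome 19 of GRCm38, 5447547 to 5455946, on the plus strand. Of the 2033 bases of its annotated exons, 1163 are also exons of Ccdc85b on the opposite strand, and the sources used here do not give the strand setting of the counting. Ccdc85b had 52.1, 43.5 and 43.8 CPM in sgControl and 41.5 and 40.2 CPM in sgMef2d, a log2 fold change of -0.19 (adjusted p = 0.231), opposite in sign to that of Fosl1.

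Fosl2, the other abundant Fos family gene, had 298, 334 and 335 CPM in sgControl and 286 and 298 CPM in sgMef2d. The sgMef2d libraries were both lower, but sgMef2d replicate 2 and sgControl replicate 1 nearly met (297.6 and 297.9 CPM). The log2 fold change was -0.14 (95% interval -0.29 to 0.0022, adjusted p = 0.222, the same test). Without sgControl replicate 1 it was -0.20 and passed (adjusted p = 1.48e-05), the only one of 15 alternatives in which it did, with adjusted p up to 0.647 in the others. Fosl2 (ENSMUSG00000029135.10, chromosome 5, 32135801 to 32157842, plus strand) overlaps no other annotated gene.

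The makeup of Fos family RNA was also compared, where a rise of Fosl1 alone lowers the share of Fosl2. In the sum of Fos, Fosb, Fosl1 and Fosl2 RPKM, Fosl1 held 47.7%, 46.2% and 45.1% in sgControl and 55.3% and 56.3% in sgMef2d. Fosl2 held 49.2%, 50.6% and 51.9%, and 39.7% and 41.1%. Neither share overlapped between the groups. The ratio of Fosl1 to Fosl2 RPKM was 0.918 ± 0.0510 (SD, n = 3) in sgControl and 1.38 ± 0.0160 (SD, n = 2) in sgMef2d. An exact two-sided permutation test gave p = 0.2 for each of these 3 quantities, which is the smallest p that 3 against 2 libraries allow. The sum itself ran from 62.6 to 68.3 RPKM in sgControl and was 74.5 and 74.9 RPKM in sgMef2d. Shares depend on the lengths used. With the shared exon bases left out, the ratio was 2.15 in sgControl and 3.23 in sgMef2d, so that which of the pair was more abundant in sgControl cannot be told. Another length scales this ratio alike in every library, so it cannot change the order of the libraries and is no check of the difference between the groups.

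**Figure D3:**
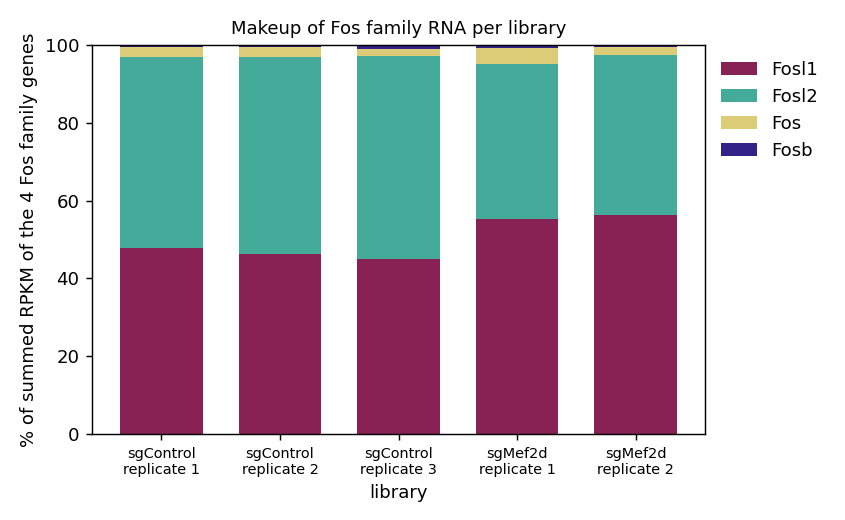
Share of each Fos family gene in the summed RPKM of Fos, Fosb, Fosl1 and Fosl2 (y axis, percent) in each library. The Fosl1 share is 45.1% to 47.7% in the 3 sgControl bars and 55.3% and 56.3% in the 2 sgMef2d bars, with a lower Fosl2 share (shares of a sum are not independent), and Fos and Fosb together fill a thin band.

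Of the Jun family, Junb had 164, 166 and 153 CPM in sgControl and 195 and 183 CPM in sgMef2d. The groups did not overlap. The log2 fold change was 0.24 (SE 0.062, 1.18-fold, adjusted p = 0.0393). The sgControl mean was 161 ± 6.90 CPM (SD, n = 3) and the sgMef2d mean 189 ± 8.59 CPM (SD, n = 2). This call was near the threshold. It was kept in 9 of 15 alternatives and lost without sgControl replicate 2 (adjusted p = 0.0911), sgControl replicate 3 (0.117), sgMef2d replicate 1 (0.404) or sgMef2d replicate 2 (0.199), with the replicate number as a block (log2 fold change 0.20, adjusted p = 0.113), and once each library's trend over length and GC content of transcripts was taken out (0.16, adjusted p = 0.0725). It stayed positive in all 15. Junb (ENSMUSG00000052837.6, chromosome 8, 84974484 to 84978718, minus strand) shares 173 exon bases with Prdx2 on the other strand, whose log2 fold change was -0.0077 (adjusted p = 0.959) and turned positive (0.04) without sgControl replicate 1.

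Jun had 50.8, 47.9 and 44.8 CPM in sgControl and 63.0 and 51.8 CPM in sgMef2d. Both sgMef2d libraries were above the sgControl libraries, sgMef2d replicate 2 only by a small step. The log2 fold change was 0.26 (95% interval 0.06 to 0.46, adjusted p = 0.108, the same test), which did not pass. Without sgControl replicate 1 it was 0.31 and passed (adjusted p = 9.46e-05). It was 0.11 (adjusted p = 0.722) without sgMef2d replicate 1 and 0.39 (adjusted p = 0.105) without sgMef2d replicate 2, and passed in 1 of 15 alternatives. The mean share of Jun in the summed RPKM of Jun and Junb was 17.7% in sgControl and 17.9% in sgMef2d. It was 17.2% to 18.3% in the sgControl libraries, and 18.9% and 16.9% in the sgMef2d libraries, above and below that range. Jun (ENSMUSG00000052684.4, chromosome 4, 95049034 to 95052222, minus strand) has a single exon and shares 232 of its bases with the antisense gene Junos, which had at most 20 counts in a library. The summed RPKM of the Fos family over that of Jun and Junb was 0.777 ± 0.0552 (SD, n = 3) in sgControl and 0.746 ± 0.0490 (SD, n = 2) in sgMef2d, with overlapping ranges. This difference was within the spread and its direction turned with the shared exon bases left out (1.16 and 1.21).

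Nr4a1, the other gene of the list known as a MEF2 target, went the other way from Jun. It had 21.6, 20.2 and 19.2 CPM in sgControl and 17.4 and 18.5 CPM in sgMef2d. The sgMef2d libraries were both lower, by less than the sgControl range in the nearest pair. Its log2 fold change was -0.19 (95% interval -0.40 to 0.03, adjusted p = 0.279), and it stayed short of the threshold in 15 of 15 alternatives (adjusted p from 0.0898 to 0.699). Nr4a1 (ENSMUSG00000023034.7) lies on chromosome 15, 101254269 to 101274795, on the plus strand.

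The sequences before the start sites are shown because the pair of MEF2 target genes differ in matches to the motifs searched, and because Atf3 and Fos held matches too. RefSeq promoter windows on GRCm38.p6 were matched for 7 of the 9 genes, all but Fosl1 and Egr1. The MEF2 site, the CArG box bound by SRF, the AP-1 sites TGACTCA and TGAGTCA, the cyclic AMP response element TGACGTCA, its part TGACGT, the variant TGACATCA and TATAAA were searched on both strands in the 250 bases before each start. TGACTCA and TGAGTCA are each other's reverse complement, so they count the same sites, and TGACGTCA contains TGACGT. TGACATCA and TGACGT were added after the sequences had been read. Capitals mark matches, which are TGACATCA and the MEF2 site in Jun, TGACGT and TATAAA in Fos, and the MEF2 site in Atf3. A match to TGACGT on the other strand of Atf3, 8 to 3 bases before the start, lies mostly in annotated exon and is not marked. The sequences run 5′ to 3′ on the strand of the gene and stop before annotated exons.
Jun (chr4:95052223-95052322, minus strand): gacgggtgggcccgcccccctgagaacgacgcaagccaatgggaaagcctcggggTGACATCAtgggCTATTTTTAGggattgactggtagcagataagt
Nr4a1 (chr15:101266746-101266845, plus strand): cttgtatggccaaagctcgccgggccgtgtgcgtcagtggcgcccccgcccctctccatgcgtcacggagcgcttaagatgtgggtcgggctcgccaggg
Atf3 (chr1:191183341-191183433, minus strand): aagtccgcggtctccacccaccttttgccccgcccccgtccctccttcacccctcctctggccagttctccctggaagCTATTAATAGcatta
Fos (chr12:85473790-85473889, plus strand): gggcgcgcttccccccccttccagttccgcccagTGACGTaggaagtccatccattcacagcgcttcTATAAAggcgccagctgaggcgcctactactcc

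A MEF2 site occurred in 2 of the 7 windows, 33 to 24 bases before the start of Jun and 22 to 13 bases before that of Atf3, and in 2.92% of the 32841 promoter windows searched. Neither gene passed the threshold, and their log2 fold changes had opposite signs (0.26 and -0.25). TGACATCA lay in 1 of the 7 windows, 45 to 38 bases before the start of Jun, and in 2.93% of all windows. TGACGT lay in 2, Fos and Atf3, and in 6.47% of all windows. TATAAA lay in 1 window, that of Fos, and in 12.4% of all. The AP-1 sites (4.46% of all windows), the full response element (1.55%) and the CArG box (1.47%) lay in 0 of the 7. The window of Nr4a1 held none of the motifs searched, a result that depends on the motifs and the window chosen. Its printed bases hold tgcgtca, which was not searched. Not all windows lie upstream of the annotated gene: the 250 bases of Fosl2 are all annotated exons of that gene, and the windows of Atf3 and Nr4a1 precede internal starts, within the annotated gene. A match is a stretch of letters, not a measured binding site, and these windows leave out enhancers and more distant promoter elements.

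The remaining genes had low counts and wide intervals. Fos, the founding member of its family, had 3.61, 4.04 and 3.15 CPM in sgControl and 7.36 and 3.50 CPM in sgMef2d, from between 43 and 125 counts. One sgMef2d library was above all sgControl libraries and the other was among them. Its log2 fold change was 0.62 (95% interval 0.01 to 1.22, adjusted p = 0.205). It rested on sgMef2d replicate 1, since it was -0.05 (adjusted p = 0.962) without that library, 1.02 (adjusted p = 0.0444) without sgMef2d replicate 2 and 0.62 (adjusted p = 0.0318) without sgControl replicate 1. Fos (ENSMUSG00000021250.13) lies on chromosome 12, 85473890 to 85477273.

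Egr1, like Fos, was highest in sgMef2d replicate 1, with 1.80, 1.56 and 2.13 CPM in sgControl and 3.30 and 2.02 CPM in sgMef2d, from 22 to 56 counts. Its groups overlapped, and its log2 fold change was 0.56 (95% interval -0.05 to 1.17, adjusted p = 0.253). Like that of Fos it rested on sgMef2d replicate 1, and was 0.14 (adjusted p = 0.909) without that library and 0.85 (adjusted p = 0.264) without sgMef2d replicate 2. Egr1 (ENSMUSG00000038418.7) lies on chromosome 18, 34859823 to 34864984. Fosb had 2.49, 3.12 and 4.18 CPM in sgControl and 4.06 and 2.83 CPM in sgMef2d. Its spread in sgControl was larger than that of 92.1% of the genes tested, and its log2 fold change of 0.13 (95% interval -0.43 to 0.70, adjusted p = 0.806) turned negative without sgControl replicate 1 (-0.06) or sgMef2d replicate 1 (-0.17). Fosb (ENSMUSG00000003545.3) lies on chromosome 7, 19302696 to 19310051. Atf3 had 3.56, 3.55 and 4.32 CPM in sgControl and 3.30 and 3.03 CPM in sgMef2d, lower in both, with a log2 fold change of -0.25 (95% interval -0.69 to 0.18, adjusted p = 0.488). Atf3 (ENSMUSG00000026628.13) lies on chromosome 1, 191170296 to 191218039. The intervals of these 4 genes include changes larger in size than that of Fosl1.

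The other immediate early genes were described by a list of 47, of which 44 were listed and 43 tested. Of these 11 passed the threshold, 7 higher and 4 lower, with a median log2 fold change of 0.09, where 7.95% of all genes passed, 3.67% higher and 4.28% lower. Arc, known as a synaptic immediate early gene and MEF2 target, rose from 5.27, 4.89 and 5.35 CPM to 11.2 and 10.1 CPM (log2 fold change 1.05, SE 0.13, adjusted p = 8.49e-04). Ier3, an early survival gene, rose from 148, 141 and 128 CPM to 212 and 198 CPM (0.56, adjusted p = 6.77e-04). Neither call was lost in 15 alternatives. Zfp36, which encodes the mRNA-destabilizing protein tristetraprolin, rose from 13.5, 15.6 and 13.9 CPM to 24.0 and 18.2 CPM (0.57, adjusted p = 0.0192), and Ier2, a small early response gene, from 61.1, 52.4 and 47.1 CPM to 84.0 and 67.8 CPM (0.50, adjusted p = 0.0199). Zfp36 lost its call without sgMef2d replicate 1 (adjusted p = 0.303), and Ier2 without that library (0.295) or sgControl replicate 2 (0.0564). The count for the list was 21 without sgControl replicate 1 (29.4% of all genes), 6 without sgControl replicate 2 (4.84%), and 3 and 4 without sgMef2d replicates 1 and 2 (1.88% and 1.83%). Egr2 and Egr3, relatives of Egr1 chosen after their values were seen, did not pass with all libraries, with log2 fold changes of 0.69 and 1.01 and adjusted p of 0.127 and 0.0585. Without sgControl replicate 1 both passed (0.78 and 0.92, adjusted p = 0.0128 and 0.0252). With the replicate number as a block both passed too (adjusted p = 0.0121 and 0.0284), and Egr3 also passed with the length and GC trend taken out (0.0419). Without sgMef2d replicate 1 their log2 fold changes were 0.26 and 0.64 (adjusted p = 0.762 and 0.520).

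The sgMef2d libraries differed from each other in these genes. On the log2 CPM scale, sgMef2d replicate 1 exceeded replicate 2 by 1.04 in Fos, 0.67 in Egr1, 0.50 in Fosb and 0.28 in Jun, but by 0.09 in Junb and -0.03 in Fosl1. Among the 43 other immediate early genes, 12 (27.9%) were higher in replicate 1 by more than 0.2 and 0 were lower by as much, while of all genes tested 10.4% were higher and 10% lower by as much. The largest gaps of that list were in Egr2 (0.70), Nr4a2 (0.68), Btg2 (0.61) and Egr3 (0.60). The bound of 0.2 was chosen after the values were seen, and as this concerns single libraries no test was made. The share of counts on mitochondrial genes, 2.36% and 2.26%, and the totals of 17039087 and 14909620 counts differed little between these libraries. Their part in the gap was not tested.

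**Figure D4:**
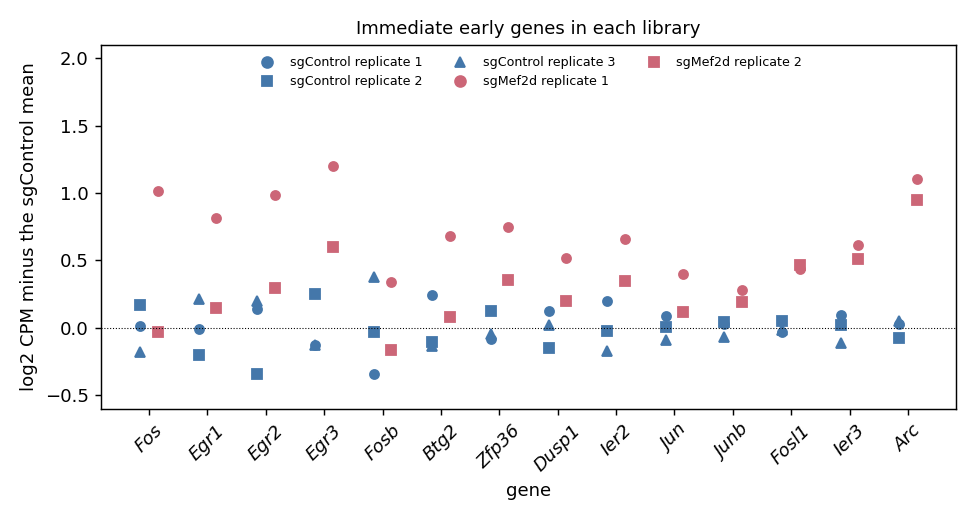
Log2 CPM minus the sgControl mean (y axis) for 14 immediate early genes, 6 of them from the fixed list of members, with 1 point per library. In Fos the sgMef2d points are at 1.01 and -0.03, in Egr1 at 0.82 and 0.14, while in Fosl1 (0.43 and 0.47), Ier3 (0.61 and 0.51) and Arc (1.10 and 0.95) they lie together, apart from the sgControl points.

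Of 13 other bZIP genes whose proteins can pair with Jun or Fos or that belong to their wider family, 11 were tested and 1 passed, a share near the 7.95% of all genes. Creb5 fell from 23.6, 27.4 and 30.7 CPM to 16.9 and 17.3 CPM (log2 fold change -0.66, SE 0.12, adjusted p = 0.00545), a call that was lost without sgMef2d replicate 1 (adjusted p = 0.0788) or 2 (0.0696), while 5 genes passed without sgControl replicate 1 (29.4% of all genes). The median of this list was -0.04. Upstream of the early genes, a list of 35 kinases, SRF and CREB cofactors, MEF2 factors and class IIa histone deacetylases had 32 tested, a median of -0.0095 and 1 gene past the threshold, beside 7.95% of all genes. This was Hdac5, a deacetylase that represses MEF2, which fell from 42.2, 43.3 and 46.8 CPM to 34.3 and 34.2 CPM (-0.36, adjusted p = 0.0146), though not past the threshold without sgMef2d replicate 1 (0.149) or 2 (0.166). Without sgControl replicate 1, 11 of these genes passed, a share near the 29.4% of all genes in that fit.

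Of 34 textbook AP-1 targets, 28 were tested and 9 passed, 5 higher and 4 lower (7.95% of all genes, 3.67% higher and 4.28% lower), with a median log2 fold change of 0.06 that was the same with Sprr1b, at 0 counts in sgControl, at its lower bound. The targets moved both ways, and Fosl1 is itself 1 of the 5 higher genes. Vim, the vimentin gene, rose from 10.8, 12.98 and 11.9 CPM to 34.1 and 37.4 CPM (1.59, adjusted p = 3.95e-06) and Itga5, a fibronectin receptor subunit gene, from 77.1, 87.1 and 87.7 CPM to 125 and 138 CPM (0.65, adjusted p = 4.29e-04). The matrix metalloproteases Mmp9 and Mmp3 fell, Mmp9 from 12.2, 13.7 and 16.1 CPM to 7.30 and 5.99 CPM (-1.05, adjusted p = 0.00182) and Mmp3 from 14.6, 14.0 and 12.4 CPM to 9.83 and 7.54 CPM (-0.65, adjusted p = 0.0157). Mmp3 lost its call without sgMef2d replicate 2 (adjusted p = 0.234), and the count was 16 without sgControl replicate 1, where 29.4% of all genes passed. The lists of AP-1 targets and of MEF2 targets were compiled from general knowledge and do not show what is bound in these cells.

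Of 12 textbook MEF2 targets, Jun and Nr4a1 included, 7 were tested and 2 passed, beside 7.95% of all genes. Only Arc (described above) passed upward, and Klf6, a Krüppel-like factor gene, passed downward, from 173, 174 and 163 CPM to 148 and 141 CPM (-0.23, adjusted p = 0.0391). Klf6 did not pass with DESeq2 (adjusted p = 0.0521) or when sgControl replicate 2 (0.155), sgMef2d replicate 1 (0.192) or sgMef2d replicate 2 (0.409) was left out. The median was -0.19, the value of Nr4a1, and 2 of the 7 genes had a positive log2 fold change.

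Heat shock and other stress genes, which like immediate early genes respond to handling and stress, were read beside them. Of 13 heat shock genes tested, 2 passed, both higher, beside 3.67% of all genes in that direction. Hspa1b had 146, 155 and 156 CPM in sgControl and 207 and 206 CPM in sgMef2d (log2 fold change 0.44, adjusted p = 8.74e-04), and Hsph1 385, 373 and 392 CPM and 515 and 518 CPM (0.43, adjusted p = 7.97e-04). The summed CPM of this list was 10674 to 10908 in sgControl and 11689 to 11807 in sgMef2d, and 8 genes passed without sgControl replicate 1 (29.4% of all genes). Hspa1b and Hsph1 were close to equal in both sgMef2d libraries. Other genes of the list were higher in sgMef2d replicate 1 (Hspa4l, 172 and 153 CPM) or lower (Hspb1, 33.4 and 35.7 CPM). Of 16 genes of the ATF4 stress response, 3 passed, beside 7.95% of all genes, with Ppp1r15a higher (0.43, adjusted p = 0.0468) and Trib3 (-0.47, adjusted p = 0.0269) and Nupr1 (-0.42, adjusted p = 0.0176) lower, with 1957 to 2126 CPM in all in sgControl and 2090 to 2150 CPM in sgMef2d. None of these 3 calls held without sgMef2d replicate 1 (adjusted p from 0.134 to 0.222) or sgMef2d replicate 2 (0.208 to 0.345), and 8 genes of this list passed without sgControl replicate 1 (29.4% of all genes). The part of stress in the early genes' differences was not tested.

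**Figure D5:**
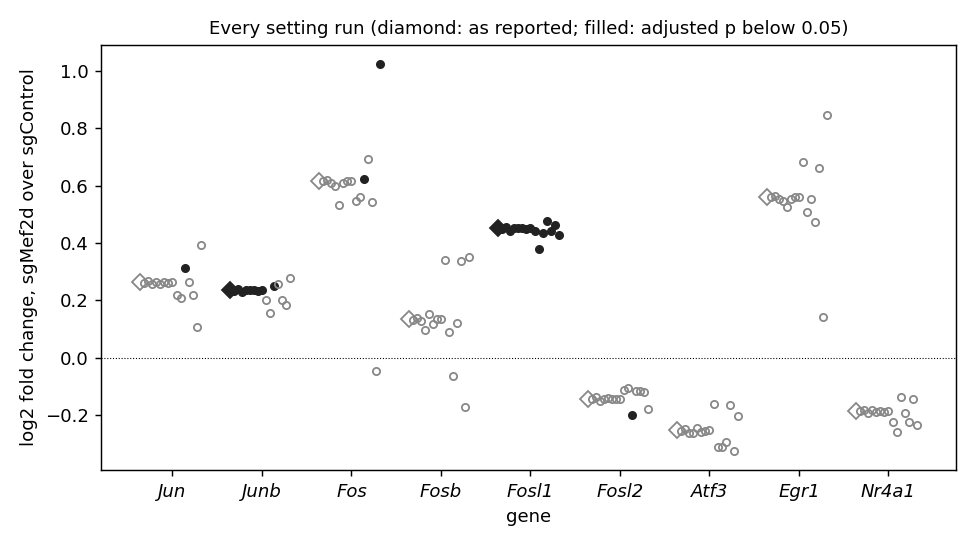
Log2 fold change (sgMef2d over sgControl) of each gene as reported (diamond) and in each of 15 alternatives (circles), filled where the adjusted p was below 0.05. All Fosl1 points are filled and lie between 0.38 and 0.47, the Junb points are filled in 9 of the 15 alternatives, and Fos and Fosb have points on both sides of 0.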

How the data were processed

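Poly(A)-selected, strand-marked libraries of 3 sgControl and 2 sgMef2d EpH4 cell samples were grouped by their titles. The authors aligned reads with STAR to GRCm38 and deposited raw counts per gene. The submitters' processing notes also name CASAVA and Subread. The smallest highest count of any listed gene was 11, so the table had been filtered on low counts. All 12934 identifiers matched GENCODE M21 (12811 with the same version), which gave symbols, positions and exon lengths.

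The deposited counts were tested with edgeR 4.0.16 in R 4.3.3 (TMM factors, default expression filter, quasi-likelihood test with bias-adjusted deviances, Benjamini-Hochberg adjustment over 12483 genes, threshold 0.05). CPM and RPKM are TMM-scaled, and log2 CPM used a prior count of 2. A count of 3 corresponds to between 0.146 and 0.220 CPM, and intervals cover counting and replicate error as fitted. Alternatives were other normalizations and filters, DESeq2 1.42.0, limma-voom (limma 3.58.1), the legacy form, a replicate block, removal of length and GC trends (loess, span 0.3) and leaving out each library. On counts simulated for this comparison (12352 genes), 86 of 94 genes changed by 1 and 70 of 103 changed by 0.5 on the log2 scale were recovered, with 8 calls among 12155 unchanged genes. The simulated libraries of a group varied independently around a common mean. No simulated library stood apart as sgControl replicate 1 did, so these rates may not hold for the data.

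The members and gene lists were chosen with earlier results of these data known. The genes named by rule are all members and, of each other list, up to 4 past the threshold with the largest absolute log2 fold change, a mean log2 CPM of 1 or more and groups that did not overlap, or else the member with the smallest p. Outside this rule, Mef2d, Egr2, Egr3, Nr4a2, Btg2, Epcam, Krt8, Sprr1b and the genes that overlap members are named. Protein sequences were not used here.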

Additional observations from a re-analysis of the deposited data

How the results depend on the processing

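Fosl1 passed the threshold in all 15 alternatives, Junb in 9, and Fosb, Atf3, Egr1 and Nr4a1 in none. The replicate numbers, of which the groups share 2, were not shown to pair the libraries, since deviations of same-numbered libraries from their group means had correlations of 0.011 and -0.00092 over genes. With a replicate block, 1 of the 9 genes passed, 2 other bZIP genes, 17 other immediate early genes and 4 MEF2 targets, and 1254 of all genes. With the length and GC trend removed, 1 of the 9 and 2 other bZIP genes passed, and 1451 of all genes, against 992 in the fit as reported. With DESeq2, 1 MEF2 target and 1 ATF4 stress gene passed, and 793 of all genes.

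Leaving out 1 library at a time gave 234 to 3639 genes in all, 1 to 5 of the 9 genes, 0 to 5 other bZIP genes, 3 to 21 other immediate early genes, 0 to 11 upstream genes, 6 to 16 AP-1 targets, 1 to 3 MEF2 targets, 2 to 8 heat shock genes and 0 to 8 ATF4 stress genes. The log2 fold change of Fos ran from -0.047 (without sgMef2d replicate 1) to 1.02, that of Fosb from -0.17 (without sgMef2d replicate 1, and -0.064 without sgControl replicate 1) to 0.35, and that of Prdx2 from -0.037 to 0.036 (without sgControl replicate 1). Fewer libraries leave an arm with 1 or 2, assumed to vary like the other group. Among the other genes named, 391 results of single genes kept their direction and side of the threshold, 36 lost a call (Cldn4, Krt18 and Dcn among them without sgControl replicate 2 or either sgMef2d library), 6 gained one (Egr3 in 3, Egr2 in 2 and Mef2d in 1) and 1, Prdx2, turned. The causes were not tested.

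Of the levels, the ratio of Fosl1 to Fosl2 RPKM was 0.676 and 1.02 in sgControl and sgMef2d with the longest transcript as the length, and 2.15 and 3.23 with unshared exon bases, where the Fos family over Jun and Junb was 1.16 and 1.21. Fos, Fosb, Atf3 and Egr1 had between 22 and 125 counts per library, and the part of depth in their wide intervals was not tested.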
